A study of Mus musculus with 2 samples.

Results

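Regulatory T cells of mouse melanoma were described from their single-cell transcriptomes. They were selected on measured transcript counts. The members were the single-tag cells with at least 200 detected genes, at most 25% mitochondrial molecules and at least 1 Foxp3 molecule. They also had at least 2 molecules of Cd3e, Cd3d, Cd3g and Trac together, fewer than 2 of Cd8a and Cd8b1, fewer than 10 of C1qa, C1qb and C1qc, and fewer than 5 of Fscn1 and Ccl22. These rules found 214 cells among 14899 in all, or among 10491 that carried a single tag and passed the quality limits. The cells came from subcutaneous tumours of B16F10, a transplantable pigmented mouse melanoma line, grown in female C57BL/6 mice. The 3 tumour genotypes injected were Tyr knockout, Oca2 knockout and WT B16F10 cells, with 3 mice each, and the sources used here name no other allele in the mice. The labels give neither the age of the mice nor the day of dissection. CD45+ cells were sorted, each tumour genotype was labelled with its own sample tag, and the pooled cells went through 1 capture. Tags 8, 9 and 10 held 68, 75 and 71 regulatory cells, and no source used here ties a tag to a genotype. No genotype was therefore compared with another, and the tags served as 3 samples of unnamed genotype, each a pool of animals. Regulatory cells were set against 352 conventional CD4 T cells, which met the same T cell gate with at least 1 molecule of Cd4 or Cd40lg and no Foxp3, and against 757 CD8 T cells, which had at least 2 molecules of Cd8a and Cd8b1 and no Foxp3.

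Regulatory T cells restrain other lymphocytes and depend on the transcription factor Foxp3. As background, they carry the high-affinity interleukin 2 receptor through Il2ra, take up interleukin 2 that they rarely make, and signal from it through STAT5. In tumours they are known for high levels of Ctla4 and of costimulatory receptors of the TNF receptor family, and for proteins such as Lrrc32 that present latent TGF-beta. Helios, encoded by Ikzf2, is a transcription factor found in most of them.

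Foxp3 (ENSMUSG00000039521.13, chrX:7573644-7595245, plus strand, GRCm38) chose the members, so its level is a description with no test. The members held 343, 389 and 260 Foxp3 molecules in tags 8, 9 and 10, which is 695, 590 and 538 CPM, that is, molecules per 1000000 of the class and tag. A member held a median of 3.5 Foxp3 molecules and at most 25. The annotation places Flicr, a long noncoding RNA gene, over the 5′ part of Foxp3 on the same strand, so reads there may have been shared. Of 331 kept cells with Foxp3, 117 failed a limit of the gate, some of them more than 1. Among those 331 cells, 49 had 2 or more Cd8 molecules, 42 had fewer than 2 T cell receptor complex molecules, 31 had 5 or more of Fscn1 and Ccl22, and 18 had 10 or more C1q molecules. Foxp3 was also counted in groups of kept cells with markers of other types, whether or not they met the T cell gate. Foxp3 molecules were seen in 1 of 261 cells with 3 or more Cd79a and Cd79b molecules (0.383%, median depth 2381 molecules) and in 2 of 402 cells with 20 or more S100a8 and S100a9 molecules (0.498%, median depth 2258). They were seen in 18 of 1403 cells with 10 or more C1q molecules (1.28%, median depth 10110) and in 31 of 485 cells with 5 or more of Fscn1 and Ccl22 (6.39%, median depth 8018), both kept out by the gate. Of the T cells with 2 or more Cd8 molecules, also kept out, 43 of 800 held Foxp3 (5.38%, median depth 5282). The regulatory cells had a median depth of 4981 molecules.

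The label was checked on Ikzf2, Il2ra and Tnfrsf4, which the gate did not use. Of the 214 regulatory cells, 81.3% had an Ikzf2 molecule, 77.1% an Il2ra molecule and 77.6% a Tnfrsf4 molecule. Of the conventional CD4 cells, 12.2%, 15.9% and 36.1% had them, in the same order of genes, at a median depth of 2967.5 molecules. With each cell thinned to 1000 molecules, Ikzf2 was seen in 54.7% of regulatory, 6.57% of conventional CD4 and 11.9% of CD8 cells. The markers thus stood with the label at equal depth too. The 42 members with a single Foxp3 molecule had Ikzf2 in 76.2% and Il2ra in 69.0%, and the 172 members with 2 or more had them in 82.6% and 79.1%. The 16 members with 1 Cd8 molecule had Ikzf2 and Il2ra in 87.5% each, while just outside, the 3 cells with 2 Cd8 molecules had them in 66.7% and 33.3%. Of the 5 members with exactly 2 T cell receptor complex molecules, 2 had Ikzf2 and 3 had Il2ra, while just outside, 0 and 1 of the 9 cells with 1 such molecule had them. Median depth was 11854 molecules in the members with 1 Cd8 molecule and 2709 in the cells just outside. It was 1696 in the members with exactly 2 T cell receptor complex molecules and 2130 in the cells just outside. Among these members, detection was thus lowest at the T cell receptor limit, with few cells and the lowest median depth. The edges were not compared at equal depth. Cd4 itself, which the gate did not ask of a member, was seen in 153 of 214 members (71.5%). Conventional cells with an Ikzf2 or Il2ra molecule and regulatory cells whose Foxp3 molecule was missed cannot be told apart.

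Transcripts of other cells were present in the T cell classes and differed by tag. In tag 8, 2 conventional CD4 cells held 20 or more molecules of the 5 melanoma markers Pmel, Tyr, Dct, Mlana and Tyrp1, with up to 86188 molecules in a cell, and they made up 27.4% of all molecules of that class in tag 8. The summed melanoma markers stood at 42.5, 112 and 35.2 CPM in regulatory cells of tags 8, 9 and 10, against 5909 CPM in conventional CD4 cells of tag 8 and at most 60.2 CPM in those of tags 9 and 10. All 5 markers had molecules in both classes. Among regulatory cells, 24 of 68 in tag 8, 15 of 75 in tag 9 and 10 of 71 in tag 10 held 20 or more molecules of Cd74, H2-Aa, H2-Ab1 and H2-Eb1, the genes of class II antigen presentation. These 49 cells had a median depth of 9175 molecules, against 3828 in the other 165 regulatory cells. They held 98.5% of the Cd209a, 94.6% of the Il1b and 92.0% of the Cd74 molecules of all regulatory cells, but 26.0% of the Foxp3 molecules. In 45 of the 49, Ikzf2 was detected, and in 48, Trac. Such cells made up 5.68% of conventional CD4 and 3.70% of CD8 cells. The 7 macrophage markers summed to 636, 181 and 248 CPM in regulatory cells, against 632, 464 and 211 CPM in conventional CD4 cells, and the 7 dendritic cell markers to 241, 60.7 and 55.9 CPM, against 47.0, 125 and 37.0 CPM. All 7 of each list had molecules in both classes. Tag 8 was highest for the dendritic markers in regulatory cells alone. Doublets between tags were removed by the tag calls, and doublets within a tag were not called, so such pairs and single cells with those transcripts cannot be told apart. Counts of called genes against conventional CD4 cells are therefore given with all cells and with these 2 kinds of cells, melanoma-rich and class II-rich, left out of every class.

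**Figure D1:**
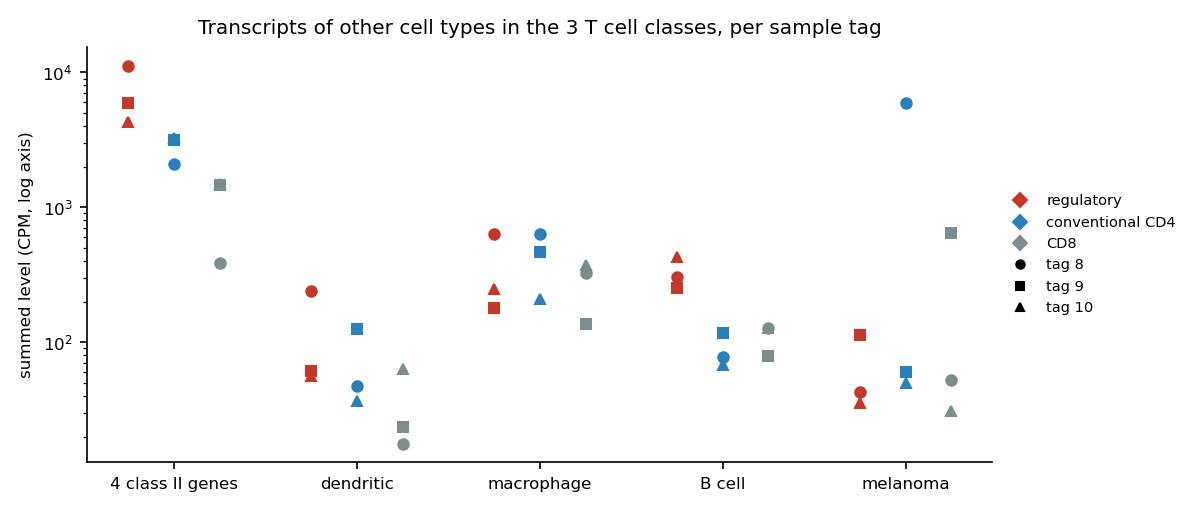
Summed level in CPM (log axis) of the 4 class II genes and of marker lists of other cell types, for each sample tag (marker shape) in regulatory, conventional CD4 and CD8 T cells (colour). Class II genes reached 11170 CPM in regulatory cells of tag 8, and melanoma markers 5909 CPM in conventional CD4 cells of tag 8.

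Regulatory cells made up 2.04% (1.59 to 2.58), 2.15% (1.70 to 2.69) and 1.94% (1.51 to 2.44) of the kept cells of tags 8, 9 and 10, with exact Clopper-Pearson 95% intervals that cover counting error only. The 3 intervals overlapped widely. Of the cells with T cell receptor complex transcripts they made up 11.9% (9.32 to 14.8), 9.83% (7.81 to 12.2) and 8.12% (6.40 to 10.1). For each CD8 T cell there were 0.430 regulatory cells in tag 8, 0.271 in tag 9 and 0.220 in tag 10. Regulatory cells were 30.1% (24.2 to 36.5) of both classes in tag 8, 21.3% (17.1 to 26.0) in tag 9 and 18.1% (14.4 to 22.2) in tag 10, so that tag 8 stood above tag 10 beyond counting error with all cells. With melanoma-rich and class II-rich cells left out, 0.282, 0.221 and 0.200 regulatory cells stood against each CD8 cell of tags 8, 9 and 10. The shares were then 22.0% (16.5 to 28.4), 18.1% (14.1 to 22.7) and 16.7% (13.0 to 20.9), with overlapping intervals. Against conventional CD4 cells the ratio was 0.660, 0.647 and 0.534, with overlapping intervals of the share. With 1 pool of mice per tag, a difference between tags has no replicate. In the same setting, without those cells, the shares of T cells were 8.51%, 8.42% and 7.44%.

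**Figure D2:**
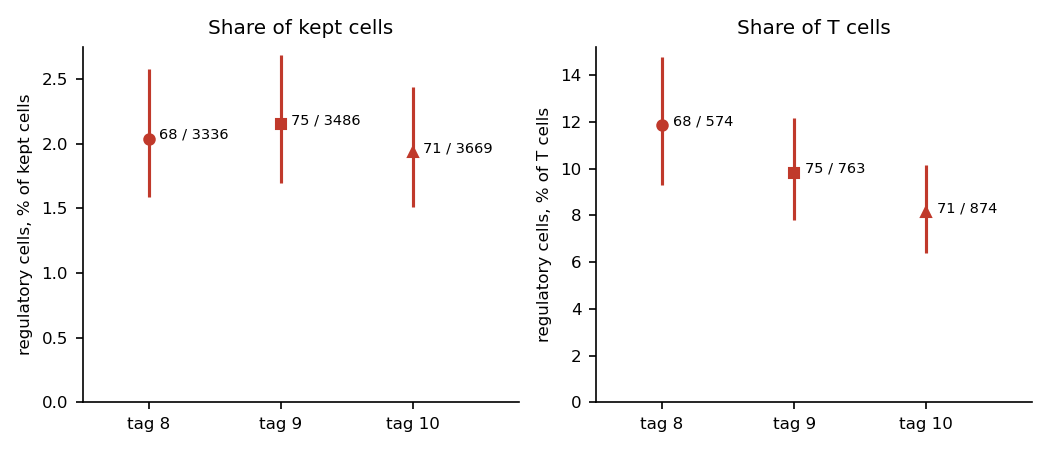
Regulatory T cells as a percentage of all kept cells (left) and of cells with T cell receptor complex transcripts (right) in tags 8, 9 and 10, with exact 95% intervals and the cell counts beside the points. The shares of kept cells lie between 1.94% and 2.15%, and the shares of T cells between 8.12% and 11.9%.

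Against conventional CD4 cells, regulatory cells showed more of their known identity genes and less of the genes of resting, recirculating T cells. Molecules were summed per tag and class, which gave 493786, 659094 and 482986 molecules for regulatory cells of tags 8, 9 and 10 and 489257, 398595 and 460102 for conventional CD4 cells. The 6 sums were compared with edgeR's quasi-likelihood test, with the tag as a block because both classes of a tag came from the same tumours. A gene was called at a Benjamini-Hochberg adjusted p under 0.05 over all 6168 genes fitted, with the genes of the gate left out. Of these, 107 were called higher (1.73%) and 141 lower (2.29%) in regulatory cells, and all 248 had the same sign in the 3 tags. The counts depended on the tags included. Without tag 9, edgeR called 0 genes higher and 0 lower, with 756 at an unadjusted p under 0.05. Without tag 8, it called 664 and 705. Without the melanoma-rich and class II-rich cells, 598 of 5289 genes were called higher (11.3%) and 599 lower (11.3%), and these included 98 of the 107 higher and 134 of the 141 lower genes. In that setting, leaving out 1 tag at a time gave 342 to 569 genes higher and 346 to 606 lower. Class differences here rest on 3 pools, and p-values set a class difference against how much it varied between tags.

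Of the 12 fitted identity genes, 10 were called higher and none lower, with a median log2 difference of 1.63, against -0.01 over all genes. Ikzf2 (ENSMUSG00000025997.13, chr1:69531214-69687245, minus strand) stood at 824, 739 and 942 CPM in regulatory cells of tags 8, 9 and 10, against 53.1, 153 and 137 CPM in conventional CD4 cells. The 3 regulatory values lay close together and far above the highest conventional one, and the fitted log2 difference was 2.93 ± 0.31 (SE, adjusted p = 0.00298). Il2ra (ENSMUSG00000026770.5, chr2:11642807-11693193, plus strand), the alpha chain of the interleukin 2 receptor, stood at 638, 865 and 890 CPM in regulatory cells, against 81.8, 146 and 104 CPM in conventional CD4 cells. Tag 8 was lowest in both classes, the classes did not overlap, and the log2 difference was 2.85 ± 0.22 (adjusted p = 0.00106). Ctla4 (ENSMUSG00000026011.13, chr1:60887000-60915832, plus strand), the receptor that competes with Cd28 for B7 ligands, stood at 1634, 1211 and 1288 CPM in regulatory cells, against 256, 374 and 341 CPM in conventional CD4 cells. It was highest in tag 8 regulatory cells, again with no overlap, and its log2 difference was 2.07 ± 0.23 (adjusted p = 0.00343). Lrrc32, which encodes the GARP protein that holds latent TGF-beta on the cell surface, had 55, 49 and 90 molecules in regulatory cells, against 5 in each tag of conventional CD4 cells. That is 111, 74.3 and 186 CPM against 10.2, 12.5 and 10.9 CPM, a log2 difference of 3.38 ± 0.37 (adjusted p = 0.00336).

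The other called identity genes differed by less. Itgae, the alpha E integrin that binds E-cadherin, was higher by 1.86 on the log2 scale. Ikzf4, the transcription factor Eos, was higher by 1.80, Izumo1r, the folate receptor 4 of regulatory cells, by 1.47, and Capg, an actin-capping protein, by 1.30. The costimulatory receptors Tnfrsf4 (OX40) and Tnfrsf18 (GITR) were higher by 1.46 and 1.36, with adjusted p of 0.0150 and 0.0142. Tnfrsf4 lay between 614 and 631 CPM in the 3 regulatory sums and between 149 and 278 CPM in the conventional ones. Il2rb, the receptor's beta chain, was not called (log2 difference 0.26 ± 0.19, adjusted p = 0.480). Nor was Nrp1, a marker of thymus-derived regulatory cells, at 38.5, 22.8 and 37.3 CPM in regulatory cells and 36.8, 70.2 and 67.4 CPM in conventional CD4 cells. Without the melanoma-rich and class II-rich cells, Nrp1 was called lower, by 1.02 (adjusted p = 0.0367), and the same count of 10 identity genes was called higher. Gpr83, also on the list, had 4 molecules in regulatory cells and none in conventional CD4 cells and was not fitted. The list is made of known regulatory genes and was chosen with earlier results known, so its count describes the cells that the Foxp3 gate selected.

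**Figure D3:**
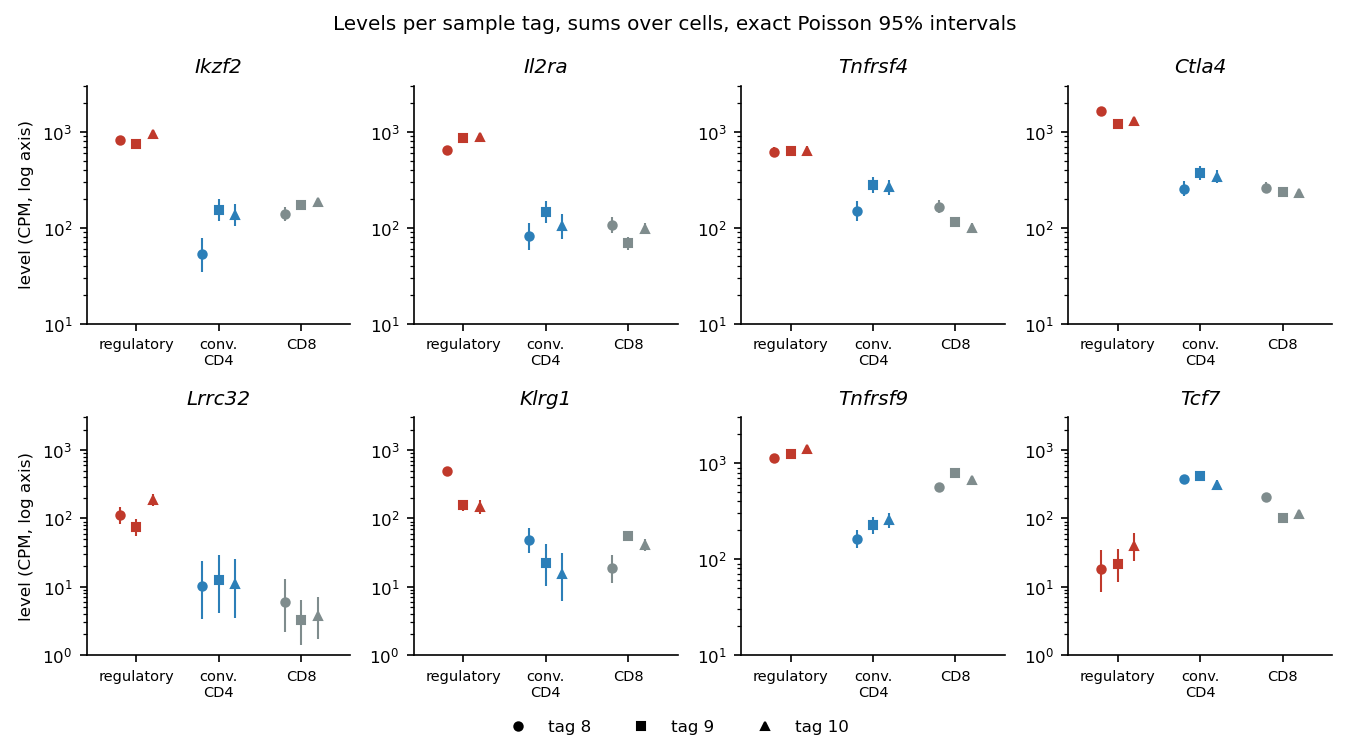
Level in CPM (log axis) of 8 genes in each sample tag (marker shape) for regulatory, conventional CD4 and CD8 T cells, with exact Poisson 95% intervals of the sums. In the first 7 panels the 3 regulatory values lie above every value of the other classes, and for Tcf7 they lie below, at 18.2 to 39.3 CPM.

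Among costimulatory receptors, 5 of 11 fitted genes were called higher and none lower with all cells, where 1.73% of all genes were called higher. With the melanoma-rich and class II-rich cells left out, 11.3% of all genes were called in each direction. Of 10 fitted costimulatory receptors, 5 were then called higher and 2 lower. The lower ones were Cd28, the receptor for B7 ligands (-0.67 ± 0.18, adjusted p = 0.00545), and Cd226, an adhesion receptor (-1.22 ± 0.44, adjusted p = 0.0386). Tnfrsf9 (4-1BB), induced by activation, stood at 1140, 1258 and 1395 CPM in regulatory cells of tags 8, 9 and 10, against 164, 226 and 254 CPM in conventional CD4 cells (log2 difference 2.55 ± 0.20, adjusted p = 0.00106). Regulatory values were several times the conventional ones in every tag. Tnfrsf8 (CD30) had 53 molecules in regulatory cells against 1 in conventional CD4 cells, a ratio of 43.7 of the pooled levels with a counting interval of 7.51 to 1760. Cd27, a receptor for Cd70, was higher by 1.95 ± 0.30 (adjusted p = 0.0138). Icos, which was seen in 93.5% of regulatory and 78.7% of conventional CD4 cells, had a log2 difference of -0.08 ± 0.19 and was not called.

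Of 9 fitted inhibitory receptors, Ctla4 and Klrg1 were called higher and Cd96 lower. Klrg1, a lectin-like receptor of cadherins carried by differentiated T cells, stood at 490, 155 and 149 CPM in regulatory cells, against 49.0, 22.6 and 15.2 CPM in conventional CD4 cells. Tag 8 was highest in both classes, the classes did not overlap, and the log2 difference was 3.12 ± 0.27 (adjusted p = 0.00137). Cd96, a receptor of the nectin family ligand Cd155, stood at 16.2, 15.2 and 39.3 CPM in regulatory cells, against 55.2, 82.8 and 100 CPM in conventional CD4 cells, and was lower by 1.83 (adjusted p = 0.0217). Pdcd1 (PD-1), Lag3 and Havcr2 (TIM-3) had log2 differences of 0.70, 1.08 and 1.34 with adjusted p of 0.229, 0.289 and 0.118, and Tigit one of 0.35. Without the melanoma-rich and class II-rich cells, 3 of 9 were called higher and 1 lower. Over all genes, 1.73% were called higher and 2.29% lower with all cells, and 11.3% each way without those cells. There Havcr2 was called higher too (1.48 ± 0.39, adjusted p = 0.00348), while Pdcd1, Lag3 and Tigit were not called.

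Of 9 fitted suppressive mediators, 4 were called higher with all cells, and 7 of 9 without the melanoma-rich and class II-rich cells. The share of all genes called higher was 1.73% with all cells and 11.3% without those cells. Fgl2, a secreted fibrinogen-like protein that inhibits dendritic cells, stood at 273, 281 and 261 CPM in regulatory cells, against 63.4, 148 and 84.8 CPM in conventional CD4 cells (log2 difference 1.5 ± 0.27, adjusted p = 0.0216). Gzmb, the protease granzyme B, stood at 431, 716 and 747 CPM in regulatory cells, against 125, 226 and 480 CPM in conventional CD4 cells (1.32 ± 0.27, adjusted p = 0.0303). For Gzmb the classes overlapped across tags, since tag 10 conventional cells lay above tag 8 regulatory cells, but within every tag the regulatory cells were higher. A single conventional cell held 186 of the 221 Gzmb molecules of tag 10, so the level of that sum rested mainly on it. Lgals1, the lectin galectin 1, was higher by 1.02 ± 0.21 (adjusted p = 0.0303), and Lrrc32 is given above.

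For the other 3, the call depended on whether the melanoma-rich and class II-rich cells were included, while the fitted differences changed little. Il10, an inhibitory cytokine, stood at 74.9, 41.0 and 102 CPM in regulatory cells, against 14.3, 27.6 and 47.8 CPM in conventional CD4 cells. Its log2 difference was 1.27 ± 0.38 (adjusted p = 0.103) with all cells, and 1.56 ± 0.36 (adjusted p = 0.000978) with those cells left out. Ebi3, the shared subunit of interleukins 27 and 35, had 1.60 ± 0.43 (adjusted p = 0.0783) with all cells and 1.73 ± 0.44 (adjusted p = 0.00250) without them. Entpd1 (CD39), which breaks down extracellular ATP, had 1.73 ± 0.42 (adjusted p = 0.0569) and 1.85 ± 0.38 (adjusted p = 0.000171). Its partner Nt5e (CD73) was not called in either setting. Il12a, the other subunit of interleukin 35, had 1 molecule in all regulatory cells together. Itgb8, the integrin chain that frees TGF-beta from its latent form, had 26, 13 and 15 molecules in regulatory cells, against 0, 0 and 5 in conventional CD4 cells, and was too low to be fitted there.

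Of 17 fitted genes of the effector and tissue programme, 5 were called higher and none lower with all cells. These were Klrg1, Glrx, Ccr8, Prdm1 and Hopx. Of the same 17, without the melanoma-rich and class II-rich cells, 9 were called higher and 1 lower, Bhlhe40, a transcriptional repressor (-0.89 ± 0.19, adjusted p = 0.000391). Over all genes, 1.73% were called higher with all cells and 11.3% without those cells. Glrx, the redox enzyme glutaredoxin, stood at 691, 572 and 708 CPM in regulatory cells, against 123, 196 and 239 CPM in conventional CD4 cells (log2 difference 1.84 ± 0.24, adjusted p = 0.00941). Ccr8, a chemokine receptor of tumour regulatory cells, had 63, 51 and 41 molecules in regulatory cells, against 11, 7 and 20 in conventional CD4 cells, with a log2 difference of 1.78 ± 0.36 (adjusted p = 0.0314). Prdm1, which encodes the repressor Blimp-1, was higher by 1.36 and Hopx, a homeobox cofactor, by 1.09. Areg, the tissue repair ligand amphiregulin, had 64, 53 and 55 molecules in regulatory cells, against 10, 21 and 20 in conventional CD4 cells. It was not called with all cells (1.47 ± 0.37, adjusted p = 0.0667) and was called higher without the melanoma-rich and class II-rich cells (1.9 ± 0.29, adjusted p = 1.68e-06). Il1rl1, the interleukin 33 receptor, did the same (0.78 ± 0.35, adjusted p = 0.245, and 0.88 ± 0.27, adjusted p = 0.0121). Maf, Gata3, Rora, Irf4 and Batf, transcription factors of effector cells, were not called in either setting.

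Homing receptors moved both ways. Of 17 fitted, those called higher included Ccr2, Ccr8 and Itgae, and S1pr1 and Itgb1 were called lower. When the melanoma-rich and class II-rich cells were out, 5 were called higher and 5 lower. Over all genes, 1.73% were called higher and 2.29% lower with all cells, and 11.3% each way without those cells. The 5 lower homing genes then included Cxcr6, the receptor for Cxcl16 (-1.58 ± 0.30, adjusted p = 7.64e-05), and Itga4, the alpha 4 integrin (-1.60 ± 0.26, adjusted p = 6.03e-06). Ccr2, a receptor for monocyte chemoattractants, stood at 658, 270 and 271 CPM in regulatory cells, against 159, 163 and 100 CPM in conventional CD4 cells (log2 difference 1.39 ± 0.27, adjusted p = 0.0275). Tag 8 regulatory cells were far above the other two, and without the class II-rich and melanoma-rich cells the difference was 1.49 ± 0.20. S1pr1, which guides T cells out of tissue along sphingosine 1-phosphate, stood at 48.6, 51.6 and 62.1 CPM in regulatory cells, against 243, 321 and 287 CPM in conventional CD4 cells (-2.41 ± 0.23, adjusted p = 0.00193). Itgb1, the beta 1 integrin, was lower by 1.53 ± 0.24 (adjusted p = 0.0142).

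Of 10 fitted resting genes, 7 were called lower and none higher with all cells, and 8 and none without the melanoma-rich and class II-rich cells, with median log2 differences of -2.08 and -2.18. The share of all genes called lower was 2.29% with all cells and 11.3% without those cells. Tcf7 (ENSMUSG00000000782.15, chr11:52252371-52283014, minus strand), the transcription factor TCF1 of naive and memory-like T cells, stood at 18.2, 21.2 and 39.3 CPM in regulatory cells, against 380, 422 and 313 CPM in conventional CD4 cells. It was seen in 10.8% of regulatory and 57.7% of conventional CD4 cells, and its log2 difference was -3.86 ± 0.32 (adjusted p = 0.00135). Klf2, Bach2, Lef1, Satb1 and Foxp1, transcription factors of quiescent T cells, and S1pr1 were called lower too, by 2.44, 2.48, 2.14, 2.02, 1.18 and 2.41. Ccr7, a chemokine receptor for entry into lymph nodes, was not called, with a log2 difference of 0.37 ± 0.28 and an adjusted p of 0.483.

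**Figure D4:**
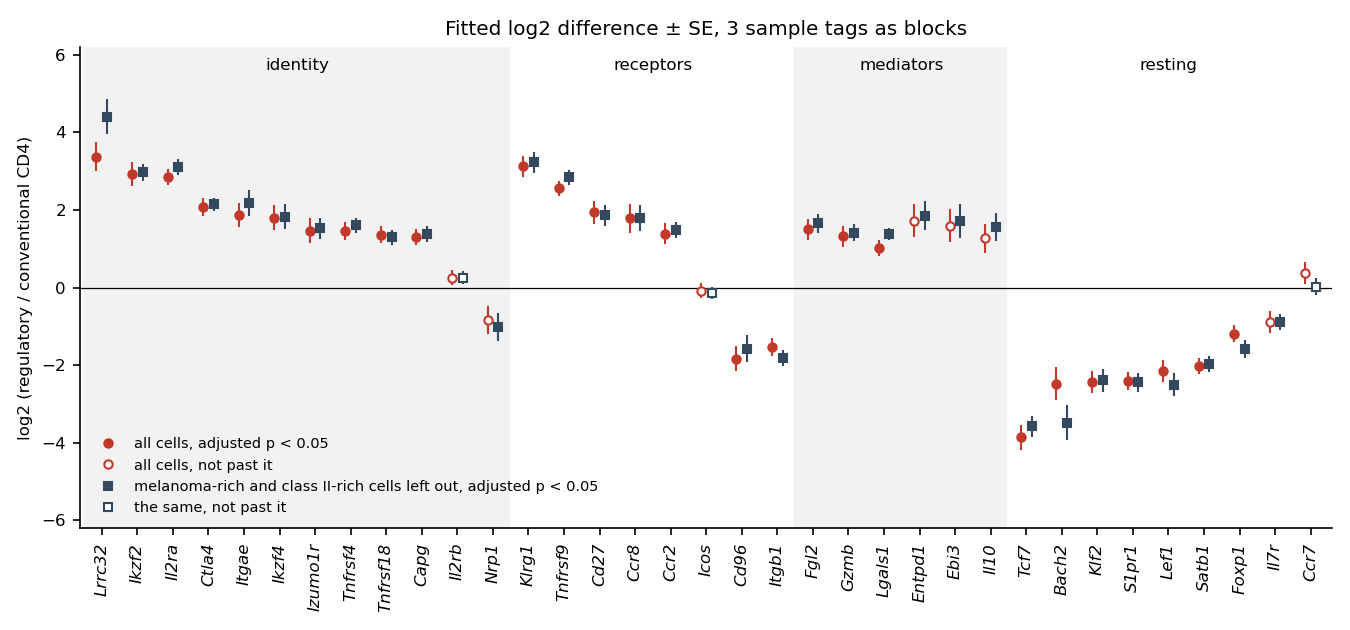
Fitted log2 difference of regulatory over conventional CD4 cells with its SE, for genes of the identity, receptor, mediator and resting lists, with all cells (circles) and without melanoma-rich and class II-rich cells (squares). Filled symbols had an adjusted p under 0.05. Identity genes lie up to 3.38 and resting genes down to -3.86 with all cells.

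With all cells, the interleukin 2 pathway gave 1 call in each direction. Of 13 fitted genes, Il2ra was called higher and Bcl2, a survival gene, lower (-2.30 ± 0.38, adjusted p = 0.0164). Il2 itself had 10 molecules in 9 of 214 regulatory cells (4.21%) and 24 molecules in 7 of 352 conventional CD4 cells (1.99%), 18 of them in a single cell. Cish, a feedback inhibitor induced by STAT5, stood at 215, 124 and 217 CPM in regulatory cells, against 170, 268 and 193 CPM in conventional CD4 cells, so that the classes overlapped (-0.22 ± 0.29, adjusted p = 0.716). Socs2, another feedback inhibitor, had a difference of 0.62 ± 0.25 (adjusted p = 0.202), and Pim1, a kinase induced by cytokines, one of -0.16 ± 0.18 (adjusted p = 0.658). When the melanoma-rich and class II-rich cells were left out, Jak1, Stat5a, Stat5b and Socs3 joined Bcl2 among the lower genes, at -0.79, -0.85, -0.73 and -1.53. In that setting 11.3% of all genes were called lower, against 2.29% with all cells.

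The start regions of this list and of Foxp3 were searched for the palindrome TTCNNNGAA, the textbook core of STAT binding sites. RefSeq (GRCm38.p6) gave a window, from 250 bases before to 50 after a start, for 13 of the 15 genes searched. Some genes had more than 1 start, and the letters occurred in 3 of the 17 windows, 1 each of Cish, Foxp3 and Socs3. Of all 32851 windows of the same length, 8.30% held them at least once and 0.457% at least 2 times. The motif reads the same on both strands. The Cish stretch, with 2 matches, lies at chr9:107296654-107296683 (plus strand), in the 5′ UTR by GENCODE and across from the antisense gene Gm17040. The Foxp3 stretch lies at chrX:7580233-7580482 (plus strand), before the later of its RefSeq starts and inside the gene, in no Foxp3 exon and in an exon of Flicr by GENCODE. They are shown because Foxp3 defines these cells and Cish is the best-known STAT5 target of the list, with the matched letters in capitals. A match describes the sequence and says nothing about binding.
Cish: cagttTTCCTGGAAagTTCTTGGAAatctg
Foxp3: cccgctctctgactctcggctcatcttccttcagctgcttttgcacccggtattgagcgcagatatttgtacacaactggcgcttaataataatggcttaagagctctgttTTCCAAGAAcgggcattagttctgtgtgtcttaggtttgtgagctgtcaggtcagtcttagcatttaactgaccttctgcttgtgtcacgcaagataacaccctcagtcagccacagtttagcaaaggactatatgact

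The helper cytokines called lower in regulatory cells were Ifng, Tnfsf11 and Tnfsf8. Of the 16 listed, 5 were high enough to be fitted. Of these, 3 were called lower with all cells and 4 without the melanoma-rich and class II-rich cells. Over all genes, 2.29% were called lower with all cells and 11.3% without those cells. Ifng had 12, 2 and 17 molecules in regulatory cells, against 41, 56 and 82 in conventional CD4 cells (log2 difference -2.82 ± 0.50, adjusted p = 0.0216). Tnfsf11 (RANK ligand) had 3, 15 and 21 molecules against 49, 83 and 138 (-3.17 ± 0.30, adjusted p = 0.00193). Tnfsf8 (CD30 ligand), the partner of the receptor Tnfrsf8, had 15, 1 and 13 molecules against 55, 96 and 60 (-3.11 ± 0.64, adjusted p = 0.0314). Il4, Il5, Il21 and Il22 had no molecule in regulatory cells, and 3, 3, 0 and 6 in conventional CD4 cells. Il17a had 29 molecules in 4.21% of regulatory cells and 15 in 1.42% of conventional CD4 cells, too few to be fitted. Gzmk, a granzyme of memory-like cells that is on no list, had 1 molecule in regulatory cells against 54, a pooled level 65.5-fold lower with a counting interval of 11.3 to 2640.

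The signalling lists gave few calls with all cells and more without the melanoma-rich and class II-rich cells. Of 9 fitted T cell receptor response genes, Cd69 and Dusp2 were called lower, by 1.25 and 1.41, and none higher with all cells. Without those cells 6 were called lower, among them Nfatc1 (-1.03 ± 0.22, adjusted p = 0.000388) and Nr4a3 (-0.80 ± 0.17, adjusted p = 0.000480), and 1 higher, Tox, a transcription factor of chronically stimulated T cells (0.90 ± 0.32, adjusted p = 0.0317). Cd69, an early activation marker that retains cells in tissue, stood at 93.2, 164 and 157 CPM in regulatory cells, against 284, 291 and 382 CPM in conventional CD4 cells. Of 9 fitted TGF-beta pathway genes, Tgfbr2, a receptor chain, and Smad7, a feedback inhibitor, were called lower, by 2.04 and 1.01, and 5 were called lower without those cells. Tgfbr2 stood at 93.2, 45.5 and 74.5 CPM in regulatory cells, against 219, 359 and 278 CPM in conventional CD4 cells, without overlap. Tnfaip3, the feedback inhibitor A20, was the 1 of 10 NF-kB genes called, lower by 1.21, and Ifit3 the 1 of 10 fitted interferon response genes, lower by 2.52. Without those cells 2 of 10 NF-kB and 5 of 10 interferon response genes were called lower, and none higher. None of 10 glycolysis and hypoxia genes, 9 lipid genes, 8 fitted helper lineage factors or 10 dissociation stress genes was called with all cells, where the background was 1.73% higher and 2.29% lower. Without the melanoma-rich and class II-rich cells, 8 of 10 glycolysis genes were called higher, where the background was 11.3% in each direction, with a median log2 difference of 0.85 against 0.39 with all cells. In that setting 4 of 10 dissociation stress genes and 2 of 8 helper lineage factors were called lower, and 1 helper lineage factor and 1 of 7 lipid genes higher. Of the melanoma-rich cells, 1 was regulatory and 2 were conventional.

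Proliferation genes were higher in regulatory than in conventional CD4 cells for 3 of 12 genes with all cells. Mki67, a protein of cycling nuclei, stood at 318, 343 and 350 CPM in regulatory cells, against 166, 50.2 and 113 CPM in conventional CD4 cells (log2 difference 1.68 ± 0.33, adjusted p = 0.0279). The conventional value of tag 8 was the highest of the 3 and came from the sum with the 2 melanoma-rich cells. Mki67, Stmn1 and Cenpf were called higher with all cells, and all 12 without the melanoma-rich and class II-rich cells, with median log2 differences of 1.41 and 2.17. The share of all genes called higher was 1.73% with all cells and 11.3% without those cells. Against CD8 cells, 1 of 12 was called higher, near the 7.99% of all genes called higher in that comparison. It was Cenpf (1.19 ± 0.26, adjusted p = 0.00994), while Mki67 had a log2 difference of 0.34 ± 0.12 (adjusted p = 0.0974). At 1000 molecules per cell, Mki67 or Top2a was seen in 20.6%, 24.0% and 21.1% of regulatory cells of tags 8, 9 and 10, against 12.6%, 6.96% and 9.85% of conventional CD4 cells and 22.3%, 27.4% and 21.2% of CD8 cells. Every regulatory share lay above every conventional one, with intervals that overlapped in part. Without thinning, 73 of 214 regulatory cells (34.1%, 27.8 to 40.9) held 2 or more molecules of the pair, against 26 of 352 conventional CD4 cells (7.39%, 4.88 to 10.6).

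**Figure D5:**
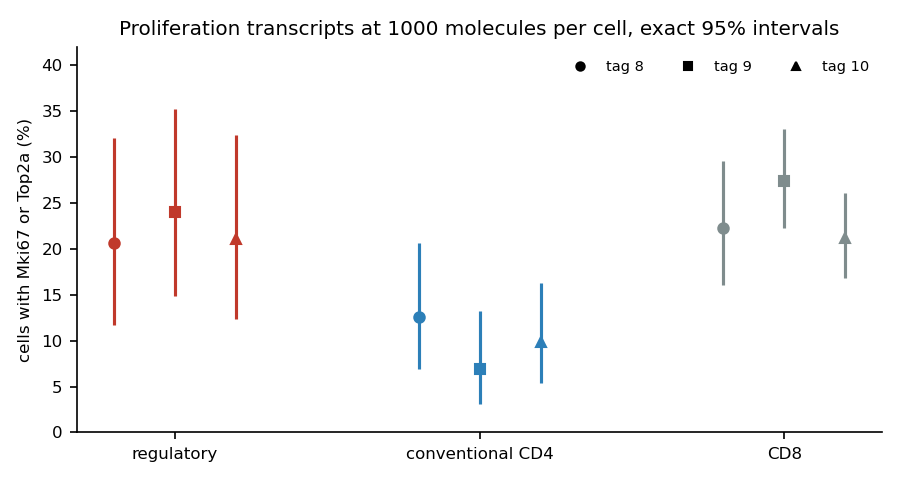
Share of cells with a molecule of Mki67 or Top2a after each cell was thinned to 1000 molecules, for regulatory, conventional CD4 and CD8 T cells of each sample tag, with exact 95% intervals. Regulatory shares lie between 20.6% and 24.0%, and conventional CD4 shares between 6.96% and 12.6%.

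Regulatory cells that held 2 or more molecules of Mki67 and Top2a, called cycling here, also held Ikzf2. They were deeper, with a median of 10727 molecules against 3632 in the other regulatory cells, so levels are given in CPM and with no test. Ikzf2 stood at 937, 652 and 956 CPM in such cells of tags 8, 9 and 10, against 721, 922 and 922 CPM in the rest. Foxp3 was lower in cycling cells of every tag, at 577, 485 and 468 CPM against 802, 813 and 641.5 CPM. The gate required Foxp3 of every member, and a required molecule counts for more CPM in a shallower cell. The Foxp3 gap therefore cannot be read apart from the selection, and the share of it due to the gate was not tested. Il2ra stood at 488, 831 and 886 CPM in cycling cells against 775, 936 and 896 CPM in the rest, nearly equal in tag 10. Lrrc32 stood at 110, 73.7 and 143 CPM against 112, 75.6 and 249.5 CPM, nearly equal in tags 8 and 9. Ctla4, Tnfrsf4 and Tnfrsf18 went both ways between tags. Il1rl1 was lower in every tag, with 127, 29.1 and 10.5 CPM in cycling cells against 248, 246 and 321 CPM in the rest. Itgae was lower in cycling cells in all 3 tags as well, at 72.1, 17.9 and 48.9 CPM against 151, 132 and 214 CPM. Il10 stood at 12.7, 24.6 and 87.2 CPM in cycling cells, against 132, 75.6 and 122 CPM in the rest.

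Against CD8 T cells, 610 of 7636 fitted genes were called higher in regulatory cells (7.99%) and 361 lower (4.73%). Once melanoma-rich and class II-rich cells were left out, the counts were 578 of 7071 (8.17%) and 414 (5.85%). Without tag 9 they were 384 and 173. Of the 971 calls with all cells, 967 had the same sign in the 3 tags. The same regulatory sums entered both comparisons, so the 2 sets of values are given side by side and are not independent. Of 12 fitted identity genes 10 were called higher, and of 17 effector programme genes 14, with none lower. The median log2 differences were 2.34 and 1.59, against -0.04 over all genes. Of 11 fitted interferon response genes 6 were called higher, and of 10 NF-kB genes 5, with none lower. Without the melanoma-rich and class II-rich cells, the interferon list had 5 higher and 1 lower, and the counts of the other 3 lists were the same. Maf, a transcription factor of interleukin 10 producing cells, stood at 686, 478 and 737 CPM in regulatory cells, against 41.4, 38.2 and 32.2 CPM in CD8 cells (log2 difference 4.05 ± 0.17, adjusted p = 1.08e-07), while its difference from conventional CD4 cells was 0.19 ± 0.28. Ccr4, a receptor for Ccl17 and Ccl22, stood at 54.7, 66.8 and 62.1 CPM in regulatory cells, against 2.96, 2.88 and 2.48 CPM in CD8 cells (4.44 ± 0.34), with 0.61 ± 0.29 against conventional CD4 cells. Il1rl1 (3.96 ± 0.23), Itgb8 (4.09 ± 0.46), Areg (2.79 ± 0.25), Ebi3 (2.68 ± 0.34) and Il10 (2.43 ± 0.27) were all called higher than in CD8 cells.

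Of the 13 fitted interleukin 2 pathway genes, 5 were called higher than in CD8 cells and 2 lower, or 5 and 1 without the melanoma-rich and class II-rich cells. Of all genes fitted against CD8 cells, 7.99% were called higher and 4.73% lower, or 8.17% and 5.85% without those cells. Cish was higher by 1.11 ± 0.18 (adjusted p = 0.00116), at 80.8, 78.5 and 86.6 CPM in the CD8 cells of tags 8, 9 and 10, below every regulatory value given above. Socs2 was higher by 3.02 and Pim1 by 1.11. Of 11 fitted inhibitory receptors, Pdcd1, Lag3, Havcr2, Cd96 and Cd160 were called lower and Ctla4, Klrg1 and Btla higher. Pdcd1 stood at 105, 117 and 126 CPM in regulatory cells, against 258, 302 and 232 CPM in CD8 cells (-1.20 ± 0.15, adjusted p = 0.000201). Cytotoxic genes of the lists were called lower in regulatory cells. Gzmb was lower by 0.91 ± 0.15 (adjusted p = 0.00126) and Prf1, which encodes perforin, by 3.31 ± 0.27 (adjusted p = 8.49e-06). Eomes, a transcription factor of cytotoxic T cells, had 2 molecules in all regulatory cells against 827 in CD8 cells, a pooled level 115-fold lower with a counting interval of 31.8 to 953.

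Genes on no list also led the comparison with conventional CD4 cells. By the rule of largest difference among called genes with 1 sign in every tag, Rapsn (3.27 ± 0.66), Dgat2 (3.07 ± 0.61), Neb (2.88 ± 0.46), Lclat1 (2.86 ± 0.43), Bmyc (2.69), Sv2c (2.45), Cmtm7 (2.35), Adap1 (2.35), Olfm1 (2.33), Pglyrp1 (2.17) and Creb3l2 (2.15) were among the 20 highest. Neb, the muscle protein nebulin, had 58, 41 and 69 molecules in regulatory cells, against 2, 7 and 10 in conventional CD4 cells. Dgat2, the last enzyme of triglyceride synthesis, had 28, 26 and 28 molecules against 5, 3 and 0. Cd209a, a dendritic cell lectin, was also among the 20 (2.29 ± 0.42), with 103 of its 131 regulatory molecules in tag 8 and 129 in class II-rich cells. At the lower end the rule gave Gzmk, Nsg2, Igfbp4, Tdrp, Pou6f1, Tcf7, Tnfrsf26, Tnfsf11, Tnfsf8, Ehd3, Tgfbr3, Rflnb, Ifng, Atp1b1 and Ifit3. These included genes with 1 to 3 regulatory molecules in all, Gzmk, Nsg2, Tdrp and Pou6f1. Igfbp4, a binding protein of insulin-like growth factors, had 3, 0 and 4 molecules in regulatory cells, against 92, 28 and 39 in conventional CD4 cells. Against CD8 cells the 10 highest were Msrb3, Lrrc32, Ermn, Ccr4, Ncmap, Dgat2, Angptl2, Itgb8, Maf and Il1rl1. Ermn, an actin-binding protein of oligodendrocytes, had 43 molecules in regulatory cells, against 6 in CD8 and 0 in conventional CD4 cells, at least 11.8-fold higher than in conventional CD4 cells with the floor set at 3 molecules over that class.

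Some immunoglobulin and gamma-delta T cell receptor transcripts were higher in regulatory than in conventional CD4 cells. Ighm, the mu heavy chain, stood at 237, 144 and 242 CPM in regulatory cells, against 67.5, 70.2 and 58.7 CPM in conventional CD4 cells (log2 difference 1.61 ± 0.26, adjusted p = 0.0164), and Igkc, the kappa chain, was higher by 2.77 ± 0.62 (adjusted p = 0.0410). Ighm was seen in 51.9% of regulatory cells, while the B cell markers Cd79a, Cd79b and Ms4a1 had 4, 5 and 0 molecules in all of them. Trdc, the constant segment of the delta chain, had 119 molecules in 16 of 214 regulatory cells, against 17 molecules in 6 of 352 conventional CD4 cells (2.52 ± 0.50, adjusted p = 0.0299). Of those 16 cells, 15 also held Trac, the constant segment of the alpha chain. Tcrg-C2, a gamma chain constant segment, had 6 molecules in regulatory, 8 in conventional CD4 and 458 in CD8 cells. The 5 gamma-delta markers summed to 146, 89.5 and 124 CPM in regulatory cells of tags 8, 9 and 10, against 34.8, 55.2 and 26.1 CPM in conventional CD4 and 105, 75.6 and 190 CPM in CD8 cells, so that the regulatory and CD8 ranges overlapped. Pairs of a gamma-delta and an alpha-beta T cell and single cells with both chains cannot be told apart. Without cells that held Trdc, Tcrg-C1 or Tcrg-C2, 403 genes were called higher and 442 lower than in conventional CD4 cells. This also left out 1 of the 2 melanoma-rich conventional cells of tag 8, the one with 86188 molecules, and with it 24.1% of the molecules of that class and tag were removed in all. Without the melanoma-rich cells alone the counts were 630 and 677, and the part of the gamma-delta transcripts in the rise was not tested.

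After regulatory cells were thinned to 1000 molecules each, the 10 genes with the largest ratio of variance to mean were Malat1 (10.2), Cd74 (9.37), Hspa1a (9.32), Cxcl2 (8.71), H2-Ab1 (8.55), Cst3 (5.94), H2-Eb1 (5.72), Hspa1b (5.27), Il1b (5.02) and Lyz2 (5.01). Cd74, H2-Ab1 and H2-Eb1 define the class II-rich cells, so their place there was set by the definition. Of the genes that do not, cells that were not class II-rich held 5.41% of the Il1b, 17.5% of the Lyz2, 19.4% of the Cst3 and 52.5% of the Cxcl2 molecules. They held 91.8% of the Hspa1a molecules, of which 196 of 245 lay in a single cell. A single cell also held 167 of the 315 Lyz2 molecules, and a single cell held 290 of the 1040 Cxcl2 molecules. Hspa1a and Hspa1b encode nearly the same heat shock protein, so reads of the pair may have been split between them. Malat1, a nuclear noncoding RNA, was spread over 205 of the 214 cells.

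Between tags, the 5 genes with the widest range of level among regulatory cells were Fn1, Clec10a, Hspa1a, F13a1 and Nrn1. Fn1, the matrix protein fibronectin, had 55, 2 and 7 molecules in tags 8, 9 and 10, of which 3, 0 and 5 lay outside class II-rich cells. Clec10a, a myeloid lectin, had 51, 4 and 8 molecules, of which 0, 3 and 1 lay outside them, and F13a1, coagulation factor XIII of macrophages, had 49, 9 and 4. Nrn1, which encodes neuritin, differed the other way, with 3, 22 and 35 molecules, of which 3, 20 and 35 lay outside class II-rich cells. It was seen in 2, 6 and 6 cells. These are descriptions of 3 pools, and the tags were not tested against each other.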

How the data were processed

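Whole-transcriptome single-cell libraries of CD45+ tumour cells, with sample tags, were analysed. The authors deposited 1 table of counts, whole numbers of distinct molecules for 24510 genes in each cell. Per the file headers it came from version 1.9.1 of the Rhapsody pipeline, which corrects molecule errors, with reads assigned on build GRCm38 and GENCODE vM19; GRCm39, named in the submitters' processing notes, was not followed. Of 14899 cells, 1448 tag multiplets and 361 cells without a tag call were left out, and no doublet caller was run. The kept cells of tags 8, 9 and 10 held 20020951, 20814133 and 22908828 molecules, with medians of 3224.5, 3670 and 3565. All cells came from 1 capture, with a transcriptome and a tag library of the same cells, and all 14899 cell indices are shared between the molecule table and the tag calls.

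Counts were summed per tag and class and tested with edgeR 4.0.16 in R 4.3.3 (TMM factors, filterByExpr, glmQLFit, glmQLFTest, tag as block). The pairing of classes comes from the tags, since both classes of a tag came from the same tumours. Gate genes stayed in the totals but were not tested. An SE is the size of the log2 difference divided by the square root of the F statistic. CPM intervals are exact Poisson and shares exact Clopper-Pearson, at 95%, for counting error only. Cells are not replicates. Thinning drew 1000 molecules per cell at random and left out 2 shallower conventional CD4 and 2 CD8 cells. The fits were tested on simulated data. Alternatives, among them DESeq2 1.42.0, other gates and left-out tags, are in the closing section.

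Named genes were members of 26 lists, the 20 highest and 15 lowest called genes against conventional CD4 cells, the 10 highest against CD8 cells, the 10 most variable and the 5 with the widest range between tags. Mitochondrial, ribosomal, immunoglobulin, T cell receptor and unnamed genes were left out of these ranks. Some genes that the lists or ranks hold are counted but not reported here by name. Members and lists were chosen with earlier results of these data known. Coordinates are from GENCODE vM21, another release on GRCm38. Python 3.11.15 was used.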

Additional observations from a re-analysis of the deposited data

Results flagged for a closer look

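Cells called multiplets by tag were used in no comparison. Of 1271 that passed the quality limits, 39 met the regulatory gate (3.07%, exact 95% interval 2.19 to 4.17), against 214 of 10491 single-tag cells (2.04%, 1.78 to 2.33). These cells lie outside the data of the report. Multiplets can include T cells, the 2 intervals overlapped, and the shares were not tested against each other. Their median depth was 8013 molecules, against 4981 in the single-tag members.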

How the results depend on the processing

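The sample tag was a block in the fits given above. Without the block, 175 genes were called higher and 228 lower than in conventional CD4 cells, and the counts against CD8 cells stayed within 1.5 times the ones given. The other counts against conventional CD4 cells are given here as higher and lower. They were 87 and 90 by DESeq2, 306 and 389 with no filter on low counts, 173 and 127 at 1000 molecules per cell, and 202 and 175 without cells that held 3 or more marker molecules of other cell types. Leaving out 1 tag at a time gave 0 to 664 genes higher and 0 to 705 lower. Further alternatives were chosen after seeing the data. These gave 40 and 50 in cells with 3000 or more molecules, 184 and 147 without cells with Mki67 or Top2a, and 630 and 677 without melanoma-rich cells. They gave 598 and 599 without melanoma-rich and class II-rich cells, and 403 and 442 without cells with gamma-delta receptor molecules.

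Against CD8 cells the counts were 391 and 183 by DESeq2, 745 and 607 with no filter, 218 and 174 at 1000 molecules per cell, 325 and 245 without cells with other markers, and 401 and 266 without cells with Mki67 or Top2a. Leaving out 1 tag gave 384 to 648 genes higher and 173 to 448 lower, and 401 to 542 and 220 to 408 without the melanoma-rich and class II-rich cells. Where fewer cells or genes entered, the counts also reflect that. Otherwise the cause was not tested.

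Where cells were left out by marker molecules, they were taken out of the T cells but stayed among the kept cells. In those settings the share of kept cells could therefore only fall. Without T cells with other markers, the share of kept cells was 0.749%, 0.947% and 0.899% in tags 8, 9 and 10. The share of T cells in tag 8 was then 7.62%. With at least 2 Foxp3 molecules, tag 10 had 1.39% of kept cells and 5.83% of T cells. With melanoma-rich and class II-rich cells left out of the T cells, regulatory cells were 1.32% and 1.69% of the unchanged 3336 and 3486 kept cells of tags 8 and 9. They were 8.51% of the T cells of tag 8.

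The values of the genes with a fitted difference or a call in the text were classed over all alternatives. Of these, 4258 were classed as the same, 225 lost the threshold and 229 passed it. Another 6, all at 1000 molecules per cell, were classed as moved. A small difference that was not called could still change sign. Irf4 against conventional CD4 cells had 0.11 with all cells and -0.58 without the melanoma-rich and class II-rich cells. Values classed as reversed were those of 2 genes, both without cells with Mki67 or Top2a and against conventional CD4 cells. These were Pim1 (log2 difference 0.34) and Stmn1 (-0.38). Depth limits low genes, since the conventional sums held 398595 to 489257 molecules and genes such as Itgb8, Il2 and Il17a could not be fitted there.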
